A study of Mus musculus with 9 samples.

Results

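The 10 genes described here, Rab3b, Cfap97, Tssc4, Nexn, Setdb1, Mlh3, Odf2l, Kif3a, Ccdc97 and Dmxl2, were picked among 19938 measured mouse genes for a rise with little spread in Notch1 knockout liver over wild-type liver. They were selected on the RMA values of the KO and WT liver arrays and are the 10 genes of highest moderated t (the limma difference over its error) among genes higher in knockout liver, so their difference between these groups is given as a description, without a test. The arrays form 3 groups of 3. AS cell line stands for 3 angiosarcoma cell lines, each derived separately from the endothelial fraction of a Notch1 knockout liver that carried a visible angiosarcoma, a tumour of vessel-lining cells. Malignant cells were selected through their growth in long culture. KO liver is liver of mice with loxP-flanked Notch1 and MxCre, a Cre recombinase under an interferon-responsive promoter. WT liver comes from animals whose Notch1 is loxP-flanked too but that lack MxCre. Poly(I:C), which acts like viral RNA and turns on interferon, was given to both genotypes at 4 weeks of age, in doses of 300 µg on days 0, 3 and 6, and in the KO mice it deletes the Notch1 exon of the signal peptide. All 9 samples are on the C57Bl/6 background, and the age at collection is not given in the sources used here. Cre was present in the KO mice alone, so an effect of Cre and the loss of Notch1 cannot be told apart.

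Notch1 is a receptor that is cut after it binds a ligand on a neighbouring cell, and its freed inner part joins the DNA-binding protein RBPJ to switch on target genes. The 10 genes do not form one pathway. Rab3b is a small GTPase of regulated vesicle release, and Dmxl2 (rabconnectin-3 alpha) is a large scaffold that binds regulators of Rab3 proteins and of the vacuolar proton pump. In Drosophila, the homologue of Dmxl2 is needed for endosome acidification and for normal Notch signalling. Kif3a is a motor subunit of kinesin-2, which carries cargo into the primary cilium, Odf2l is a protein of the centriole region, and Cfap97 is the homologue of a Drosophila protein required for motile cilia. Setdb1 methylates histone H3 at lysine 9 and silences retroelements, and Mlh3 acts in DNA mismatch repair and in meiotic crossing over. Tssc4 helps to assemble the U5 splicing particle in human cells and lies in an imprinted domain, and Nexn (nexilin) binds actin filaments in muscle Z-discs and cell adhesions. Ccdc97 encodes a coiled-coil protein.

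The promoters of the 10 genes were read for the 6 letters bound by RBPJ, the DNA-binding partner of Notch1. The shared rise of the genes comes from their selection and is no sign of a shared motif. RefSeq promoter windows were found for 8 of the 10, all but Cfap97 and Nexn. In the 250 bases before the start, TGGGAA or its reverse complement was present in 3 of 8, namely Setdb1, Ccdc97 and Tssc4, against 21.6% of all 32851 windows. GTTGCC, a part of the site bound by RFX factors of ciliary genes, was present in 1 of 8, Kif3a, against 10.4% of all windows. The letters CCAAT occurred in 6 of 8 (33.9% of all windows) and GGGCGG in 5 of 8 (32.7%). The E2F letters TTTCCCGC or TTTGGCGC occurred in 0 of 8 (1.3%). Both strands were searched, and the motifs were counted independently of any overlap. The counts of 8 are of genes, while the shares are of windows. Odf2l and Mlh3 have more than 1 window, with the same motifs in each. The 3 windows that lie wholly outside the RefSeq gene span follow, each 5′ to 3′ on the strand of the gene, with the RBPJ letters in capitals. In Setdb1 they start 135 bases and in Ccdc97 126 bases before the start, and the window of Rab3b, the gene of largest difference, holds none.
Rab3b (GRCm38.p6, chr4:108878820-108879069, plus strand): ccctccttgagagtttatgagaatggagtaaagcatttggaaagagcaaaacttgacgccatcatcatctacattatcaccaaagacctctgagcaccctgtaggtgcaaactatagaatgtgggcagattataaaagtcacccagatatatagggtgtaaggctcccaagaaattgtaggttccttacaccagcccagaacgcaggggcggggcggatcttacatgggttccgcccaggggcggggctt
Setdb1 (GRCm38.p6, chr3:95357203-95357452, minus strand): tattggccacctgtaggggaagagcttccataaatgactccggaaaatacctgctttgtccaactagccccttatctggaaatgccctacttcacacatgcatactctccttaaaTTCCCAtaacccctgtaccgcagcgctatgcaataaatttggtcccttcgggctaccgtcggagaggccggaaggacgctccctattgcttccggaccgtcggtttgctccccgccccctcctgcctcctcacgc
Ccdc97 (GRCm38.p6, chr7:25719036-25719285, minus strand): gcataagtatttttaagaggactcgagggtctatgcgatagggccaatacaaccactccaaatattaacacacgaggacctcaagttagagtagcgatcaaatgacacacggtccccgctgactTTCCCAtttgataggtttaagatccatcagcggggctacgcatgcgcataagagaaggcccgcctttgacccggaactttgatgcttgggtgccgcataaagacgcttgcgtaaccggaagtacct
A match of 6 letters is a description of the window, and binding was not measured.

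Several facts of the whole series touch these values. Notch1 itself stood at 8.75, 8.61 and 7.83 in AS lines 1, 2 and 3, at 7.84, 8.75 and 8.52 in KO livers 1, 2 and 3 and at 11.69, 11.02 and 11.71 in WT livers 1, 2 and 3. Values are on the log2 scale of RMA (robust multi-array averaging), the authors' normalization. Endothelial markers were bright in every liver, with a list mean of 11.63 to 12.06 in the KO and 11.61 to 11.71 in the WT livers, while in the lines, labelled as an endothelial tumour, the list mean was 6.45 to 6.79 and 20 of 20 markers fell against both livers. Cholangiocyte markers had list means of 8.60 to 8.97 in the lines, 6.85 to 7.42 in the KO and 7.79 to 7.93 in the WT livers. Hepatocyte markers differed widely among animals of one genotype, with list means of 10.29, 12.45 and 9.05 in KO livers 1, 2 and 3 and 11.29, 12.35 and 12.39 in WT livers 1, 2 and 3. T and NK cell markers had list means of 6.77 to 6.98 in the KO livers and of 6.80, 8.78 and 8.76 in WT livers 1, 2 and 3. In such bulk samples, fewer cells of a type and less RNA per cell cannot be told apart. The labels do not settle whether whole liver or a fraction of it was extracted. The 75th percentile of an array was 8.73 to 8.76 in the KO and 8.48 to 8.64 in the WT livers, so it separates the groups as well. Its part in the differences was measured by scaling each array to one 75th percentile, given beside the results. Precision is limited by having 3 arrays in each group.

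In KO over WT livers, limma called 0 of 19938 genes (0.0%) at an adjusted p of 0.05, with 0.0995 as the lowest adjusted p. At an unadjusted p under 0.05, 3449 genes were higher (17.3%) and 1030 lower (5.17%). All 10 genes had every KO array above every WT array, which the choice of the genes fixes, and 19.2% of all genes did the same. Their differences were 1.46-fold to 3.64-fold, with a median log2 difference of 0.67 against -0.00 over all genes. The gap between the lowest KO and the highest WT array was 0.49 to 1.48 log2 units. With all arrays scaled to one 75th percentile, the median difference of all genes moved to -0.16, the 10 differences to a range of 0.39 to 1.71, and the gap to 0.26 to 1.36. Every KO array stayed above every WT array for all 10. Over all genes the same scaling turned the split of genes whose groups do not overlap, 3829 higher and 2208 lower, into 1462 higher and 7315 lower.

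Of the vesicle genes, Rab3b had the largest difference of the 10 and Dmxl2 the fourth. Rab3b stood at 10.73, 10.43 and 10.85 in KO livers 1, 2 and 3, against 8.75, 8.71 and 8.96 in WT livers 1, 2 and 3, a log2 difference of 1.86 or 3.64-fold. The lowest KO array is thus 1.48 above the highest WT array. Dmxl2 stood at 9.42, 9.34 and 9.18 in the KO livers, against 8.52, 8.59 and 8.46 in the WT livers, a log2 difference of 0.79. Dmxl2 alone among the 10 genes has 2 probe sets, and its second gave 8.99, 8.96 and 8.73 in the KO livers, against 7.94, 8.11 and 8.04 in the WT livers. Both probe sets place every KO liver above every WT liver.

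The genes of cilium and centriole had KO over WT differences of 0.57 to 0.82. Kif3a stood at 7.44, 7.37 and 7.37 in the KO livers, against 6.79, 6.77 and 6.66 in the WT livers (log2 difference 0.65). Odf2l stood at 6.28, 6.26 and 6.28 in the KO livers, against 5.71, 5.66 and 5.75 in the WT livers (0.57). Cfap97 stood at 7.27, 7.29 and 7.27 in the KO livers, against 6.35, 6.58 and 6.43 in the WT livers (0.82). For these 3 genes the KO arrays lay within 0.08 log2 units of each other.

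The chromatin, repair and splicing genes showed the same order of groups. Setdb1 stood at 8.82, 8.70 and 8.71 in the KO livers, against 8.13, 8.02 and 8.08 in the WT livers (log2 difference 0.66). Mlh3 stood at 7.43, 7.43 and 7.37 in the KO livers, against 6.87, 6.83 and 6.87 in the WT livers (0.55). Tssc4 stood at 8.41, 8.17 and 8.21 in the KO livers, against 7.31, 7.42 and 7.35 in the WT livers (0.90). Tssc4 is the second of the 10 by size of difference, at 1.87-fold, and KO liver 1 is the highest of its 6 arrays.

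The actin-binding gene and the coiled-coil gene complete the set. Nexn stood at 6.93, 6.81 and 6.96 in the KO livers, against 6.23, 6.18 and 6.25 in the WT livers (log2 difference 0.68). Ccdc97 stood at 9.44, 9.42 and 9.38 in the KO livers, against 8.84, 8.89 and 8.87 in the WT livers (0.55). Ccdc97 had the smallest difference of the 10, 1.46-fold, and a WT range of 0.05.

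**Figure D1:**
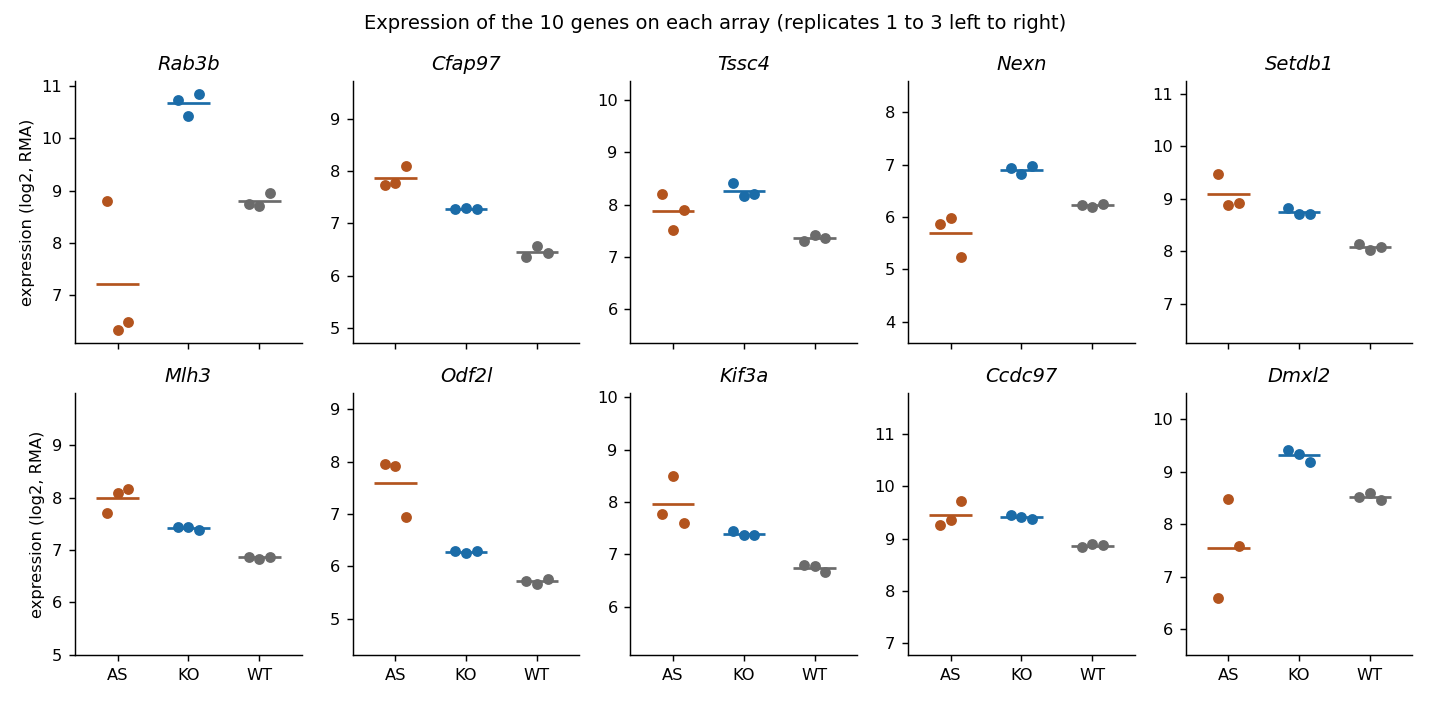
Expression (log2, RMA) of the 10 genes on each of the 9 arrays, one panel a gene, each panel spanning the same number of log2 units. Points are arrays with replicates 1 to 3 left to right, bars are group means. The KO livers lie above the WT livers in every panel, while the AS cell lines lie above both livers for Cfap97, Setdb1, Mlh3, Odf2l and Kif3a and below both for Nexn.

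The spread that chose the genes can be placed among all genes. The SD over 3 arrays was 0.01 to 0.22 in the KO livers and 0.02 to 0.13 in the WT livers, against medians of 0.12 in each liver group over all genes. Rab3b, with SDs of 0.22 in the KO and 0.13 in the WT livers, was not tight by this measure and stood at percentiles 73.3 and 52.5. It ranks first because its difference is large. Cfap97 and Odf2l had the smallest KO spreads, at percentiles 3.6 and 4.2. In 4 of the 10 genes (Cfap97, Mlh3, Odf2l and Kif3a) at least 2 KO arrays carried exactly the same deposited value, as did 9.6% of all genes. In the WT livers 0 of the 10 genes had identical values, against 8.27% of all genes. At the edge of the choice, Ccdc97 (t of 9.86) and Dmxl2 (9.39) lie just inside, and Tmem138 (9.36) and Men1 (9.19) just outside.

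Cell type markers and the 10 genes were set side by side on each array. The small spread of the 10 genes within a liver group follows from how they were chosen on these arrays, so it says nothing about cell composition. The mean of the 10 genes was 8.22, 8.12 and 8.16 in KO livers 1, 2 and 3 and 7.35, 7.37 and 7.37 in WT livers 1, 2 and 3. Over the same arrays the mean of 25 hepatocyte markers ranged over 9.05 to 12.45 in the KO livers and 11.29 to 12.39 in the WT livers. KO liver 2, with the highest hepatocyte mean, had the lowest mean of the 10 genes among the KO livers. Proliferation markers had means of 9.02, 7.71 and 8.60 in KO livers 1, 2 and 3 and 6.90 to 7.11 in the WT livers, and 19 of 21 had every KO array above every WT array. Without KO liver 2 and WT liver 1, a choice made after seeing the data, the median difference of the 10 genes was 0.72. That choice widened the marker differences between the genotypes. The median of hepatocyte markers moved from -1.23 to -2.8 and that of T and NK cell markers from -1.49 to -2.26. The share of all genes with every KO array above every WT array moved from 19.2% to 33.9%. The part of cell type and proliferation in the differences was not tested.

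**Figure D2:**
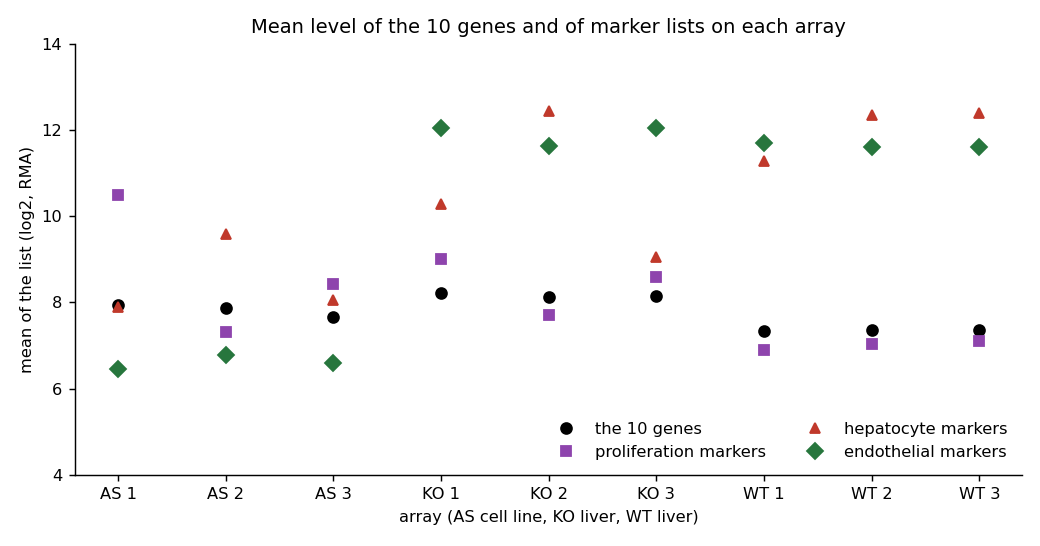
Mean log2 expression of the 10 genes and of 3 marker lists on each of the 9 arrays, AS cell lines left, KO livers centre, WT livers right. In the KO livers the 10 genes, chosen on these arrays for little spread, have means of 8.12 to 8.22, and hepatocyte markers have means of 9.05 to 12.45.

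The AS cell lines were not used in choosing the genes, and the 10 genes differed there in direction. Cfap97, Setdb1, Mlh3, Odf2l and Kif3a lay above both livers on every array, Nexn below both, and Rab3b, Dmxl2, Tssc4 and Ccdc97 overlapped one of the livers. The lines are selected malignant cells from long culture, while the livers hold several cell types. The parts of culture, malignancy and cell mixture cannot be told apart in a comparison of the lines with either liver group. Against KO livers, which share the Notch1 genotype, limma called 3 of 10 genes higher (Cfap97, Mlh3, Odf2l) and 2 lower (Rab3b, Nexn) in the lines after adjustment, where 11.4% of the whole table was higher and 10.1% lower. Every line lay above every KO liver for 5 of the 10 (24.1% of the whole table) and below for 3 (16.7%). The genes were picked for high KO values, which favours lower values in the lines. They were also picked for little KO spread, which enters the error of this fit. That favours calls and groups without overlap in either direction, and the shares of the whole table carry no such choice. Leaving out single arrays lowered the count to 0 of 10 without KO liver 1, 1 (Nexn) without KO liver 2 and 0 without KO liver 3. It was 4 without AS line 1, 3 without AS line 2 and 3 without AS line 3, where Cfap97 and Nexn passed each time. The calls of the 10 genes in the lines against KO livers thus do not hold without each single KO liver. Calls over the whole table also fell, from 4275 to 2281, 3436 and 2310 without KO livers 1, 2 and 3. Without AS lines 1, 2 and 3 they numbered 4048, 3656 and 3903.

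Rab3b had the largest difference. It stood at 8.81, 6.34 and 6.50 in AS lines 1, 2 and 3, all below the lowest KO liver, and the mean was 9.13% of the KO mean (log2 difference -3.45, SE 0.697, limma adjusted p = 0.0230). AS line 1 lay within the range of the WT livers and the other two more than 2 log2 units below them. Without AS line 2 or 3 the adjusted p was 0.0585 or 0.0653, and without a KO liver 0.0604 to 0.0864. Nexn stood at 5.87, 5.97 and 5.23 in AS lines 1, 2 and 3, below every liver of either genotype, with a log2 difference from KO livers of -1.21 (SE 0.212, limma adjusted p = 0.0147). Dmxl2 stood at 6.59, 8.49 and 7.59 in the lines, again below every KO liver, with a log2 difference of -1.76 (SE 0.480) that missed the threshold at a limma adjusted p of 0.0560. Settings in which Dmxl2 passed included leaving out AS line 2, at -2.23 (limma adjusted p = 0.0171). The mean of both probe sets was another (adjusted p = 0.0290). Dmxl2 did not pass without AS line 1 (adjusted p = 0.0507) or AS line 3 (0.126). It also missed without any single KO liver (0.135 to 0.168) and with the replicate block (0.0845). AS line 2 is the highest of the lines for Dmxl2 and the lowest for Rab3b.

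Odf2l had the largest rise. It stood at 7.95, 7.92 and 6.93 in AS lines 1, 2 and 3, all above the KO livers, a log2 difference of 1.33 (SE 0.293, limma adjusted p = 0.0304). Cfap97 stood at 7.73, 7.77 and 8.09 (log2 difference from KO livers 0.58, SE 0.114, limma adjusted p = 0.0206). Mlh3 stood at 7.71, 8.09 and 8.16 (0.58, SE 0.134, limma adjusted p = 0.0352). In these 3 genes, as also in Kif3a and Setdb1, the lines, the KO livers and the WT livers form 3 groups without overlap.

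Kif3a stood at 7.76, 8.49 and 7.60 in the lines, above every KO liver, but the log2 difference of 0.56 had a 95% interval of -0.05 to 1.17 and a limma adjusted p of 0.179. Setdb1 stood at 9.47, 8.88 and 8.93, also above every KO liver, with a difference of 0.35 (interval -0.09 to 0.79, limma adjusted p = 0.237). Tssc4 stood at 8.21, 7.52 and 7.91 in the lines and overlapped the KO livers (difference -0.38, interval -0.87 to 0.10, limma adjusted p = 0.239). Ccdc97 stood at 9.26, 9.36 and 9.72 and overlapped them too, with a difference of 0.03 (interval -0.30 to 0.37, limma adjusted p = 0.903). The missed threshold does not show that these 4 genes are alike in lines and KO livers.

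Against WT livers, limma called 6 of 10 genes higher in the lines (Cfap97, Mlh3, Odf2l, Setdb1, Kif3a and Ccdc97) and 0 lower, where 17.6% of the whole table was higher and 11.1% lower. Every line lay above every WT liver for 7 of the 10 (28.3% of the whole table) and below for 1 (19.5%). With 75th percentile scaling these counts were 6 above (21.9% of the whole table) and 3 below (30.5%). This comparison shares its AS arrays with the one above, and the genes were picked for low WT values, which favours higher values in the lines. Their little WT spread, also part of the choice, favours calls and groups without overlap in either direction, unlike for the whole table. Odf2l was higher by 1.89 (SE 0.289, limma adjusted p = 0.00633), or 3.71-fold. Cfap97 was higher by 1.41 (SE 0.131, limma adjusted p = 0.00114), Kif3a by 1.21 (adjusted p = 0.0160), Mlh3 by 1.13 (adjusted p = 0.00280) and Setdb1 by 1.02 (adjusted p = 0.00975). Ccdc97, higher by 0.58 (adjusted p = 0.0277), lost its call with 75th percentile scaling (0.44, adjusted p = 0.103). Without any 1 of the 3 WT livers 4 genes passed, Cfap97, Mlh3, Odf2l and Setdb1, while Kif3a had adjusted p of 0.0528 to 0.0645 and Ccdc97 of 0.0812 to 0.0902.

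The other 4 genes did not pass. Tssc4 differed by 0.52 (interval 0.06 to 0.97, limma adjusted p = 0.0926) and passed without AS line 2 (0.70, adjusted p = 0.0188). Nexn differed by -0.53 (interval -1.05 to -0.01, limma adjusted p = 0.117), every line lying below every WT liver, and passed with 75th percentile scaling (-0.66, adjusted p = 0.0498). Rab3b differed by -1.59 (interval -3.26 to 0.08, limma adjusted p = 0.141), and by -2.39 without AS line 1, where it passed (adjusted p = 0.000642). Dmxl2 differed by -0.97 (interval -2.13 to 0.19, limma adjusted p = 0.187) and passed without AS line 2 (-1.44, adjusted p = 0.0300). Rab3b thus passed once AS line 1 was left out, and Dmxl2 and Tssc4 once AS line 2 was. For each of these genes, leaving out either of the other lines gave no call.

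**Figure D3:**
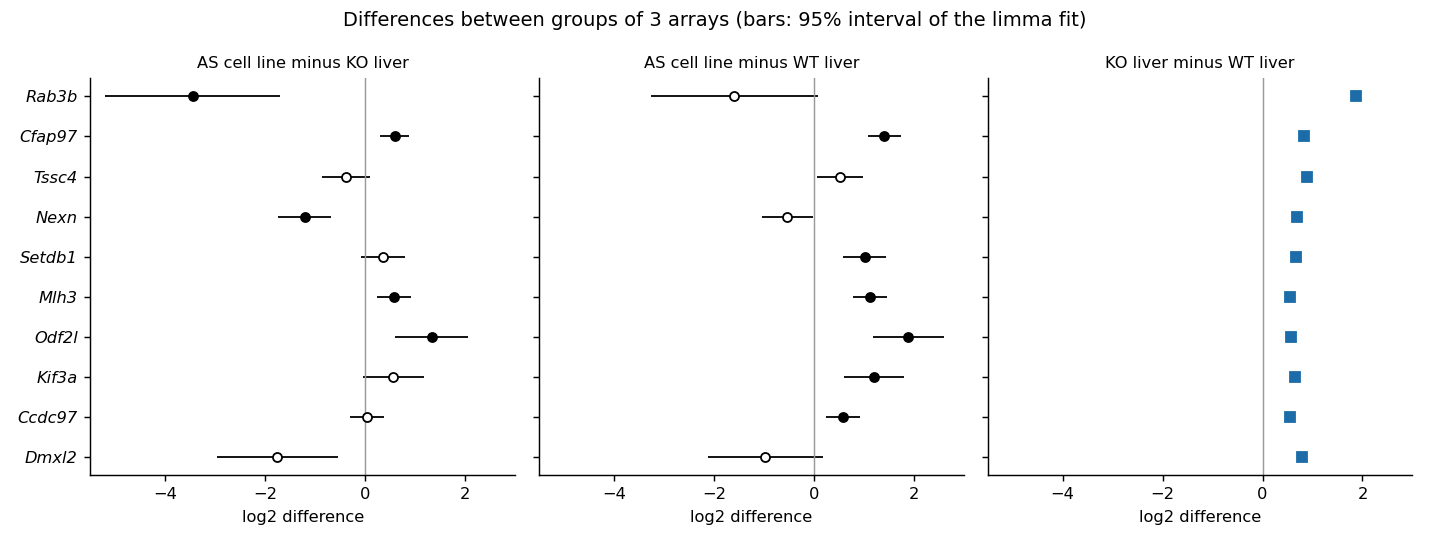
Log2 differences of the 10 genes for AS cell line minus KO liver (left), AS cell line minus WT liver (centre) and KO liver minus WT liver (right). Bars are 95% intervals of the limma fit and filled points passed an adjusted p of 0.05; blue squares are differences of means without a test, since this contrast chose the genes. The KO minus WT differences lie between 0.55 and 1.86, and those of the lines minus KO livers between -3.45 and 1.33.

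The lines also spread more than the livers. The SD over the 3 lines was 0.20 to 1.38, with a median of 0.38 against 0.19 over all genes, and the percentile of the SD among all genes ran from 50.6 to 98.2. Rab3b (SD 1.38) and Dmxl2 (SD 0.95) stood at percentiles 98.2 and 95.5, and Cfap97 was the least variable. In the KO livers the median percentile of the 10 genes was 22, and in the WT livers 18.8, as the choice required. Proliferation markers differed among the lines, with list means of 10.50, 7.31 and 8.43 in AS lines 1, 2 and 3. AS line 1, the highest of them, was also highest for Rab3b, Setdb1, Tssc4 and Odf2l and lowest for Dmxl2, Mlh3, Cfap97 and Ccdc97. The part of growth state in these values was not tested.

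**Figure D4:**
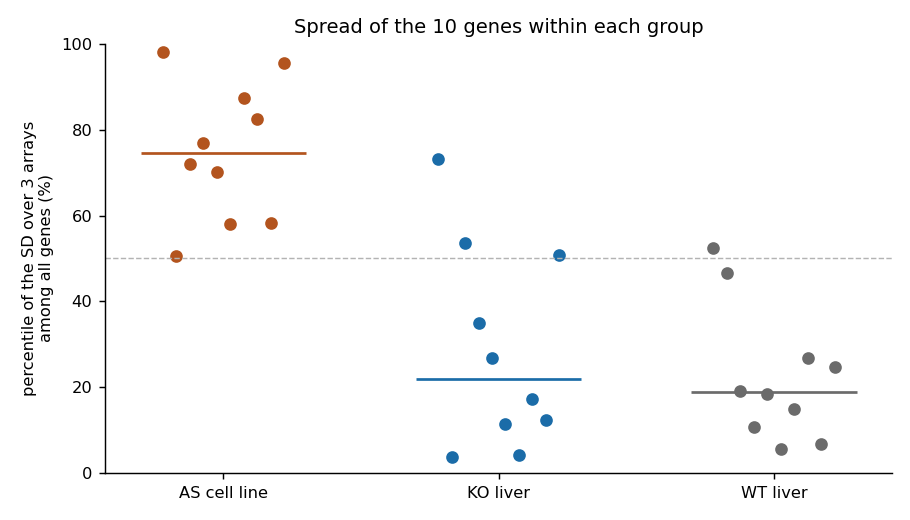
Percentile among all genes of each gene's SD over the 3 arrays of a group. Points are the 10 genes, bars their median, and the dashed line the median of all genes. The AS cell lines lie at 50.6 to 98.2, above most values of the KO and WT livers.

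The partners of the 10 genes were then counted, with the 10 themselves left out. Ciliary transport genes lay higher in KO livers: of 30 genes of kinesin-2 and intraflagellar transport, 17 had every KO array above every WT array and 1 below, against 19.2% and 11.1% of the whole table, and the median difference was 0.30. Wdr19, a subunit of the retrograde transport complex, differed by 0.86 (SE 0.100, limma adjusted p = 0.0995), Ift46 by 0.54 (SE 0.0797, adjusted p = 0.0995) and Kifap3, the kinesin-2 partner of Kif3a, by 0.54 (SE 0.109, adjusted p = 0.103). Of 26 genes of centrioles and centriolar satellites, 22 lay above and 0 below, with a median of 0.41. Stil, Sass6 and Plk4, which drive centriole duplication in dividing cells, differed by 1.67, 1.00 and 0.93 (limma adjusted p = 0.109, 0.146 and 0.175). Stil stood at 7.93, 6.47 and 7.36 in KO livers 1, 2 and 3, against 5.47 to 5.67 in the WT livers, and the KO livers have the same order in the proliferation markers.

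Chromatin and repair partners were counted in the same way. Of 22 genes of H3K9 methylation, 17 lay above and 0 below (median 0.45), with Uhrf1 at 0.87, Ehmt1 at 0.76 and Setdb2 at 0.72 (limma adjusted p = 0.182, 0.0995 and 0.190). Of 18 genes of mismatch repair and its gene families, 8 lay above and 0 below (median 0.45). The replication ligase Lig1 differed by 0.94, the clamp loader subunit Rfc2 by 0.75 and the family member Msh5 by 0.72 (limma adjusted p = 0.150, 0.0995 and 0.122). Of 15 genes of the U5 splicing particle, 4 lay above and 0 below (median 0.23), a share of 26.7% that is near the 19.2% of all genes, with Ecd at 0.55 (limma adjusted p = 0.0995). With 75th percentile scaling the counts above were 9 of 30 for ciliary transport, 8 of 26 for centrioles, 5 of 22 for H3K9 methylation, 6 of 18 for mismatch repair and 3 of 15 for U5, against 7.33% of all genes, and these 5 medians stayed above 0. Proliferation markers lay above in 19 of 21, and their part in these lists was not tested.

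The Rab3, proton pump, imprinted domain and actin lists held genes on either side. Their shares with every KO array above every WT array were 6.9%, 4.55%, 14.3% and 7.69%, against 19.2% of all genes. The shares below were 13.8%, 9.09%, 7.14% and 11.5%, near the 11.1% of all genes. Of 29 other genes of the Rab3 system, 2 lay above and 4 below, with a median of 0.04 that turned to -0.12 with 75th percentile scaling. The scaling moved the median of all genes as well, and relative to it the list stood at 0.04 in both settings. Rab3a, Rab3c and Rab3d differed by 0.30, 0.04 and 0.04 (limma adjusted p = 0.270, 0.775 and 0.854), and in each the KO and WT livers overlapped. Of 22 subunits of the vacuolar proton pump, 1 lay above and 2 below (median -0.02). Of 14 other genes of the imprinted domain around Tssc4, 2 lay above and 1 below (median -0.03). Of 26 genes of Z-discs and smooth muscle actin, 2 lay above and 3 below, with a median of 0.12 that turned to -0.04 with the scaling. Relative to all genes it was 0.12 in both settings. Smtn, a smooth muscle actin binder, differed by 0.71 (SE 0.169, limma adjusted p = 0.115).

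**Figure D5:**
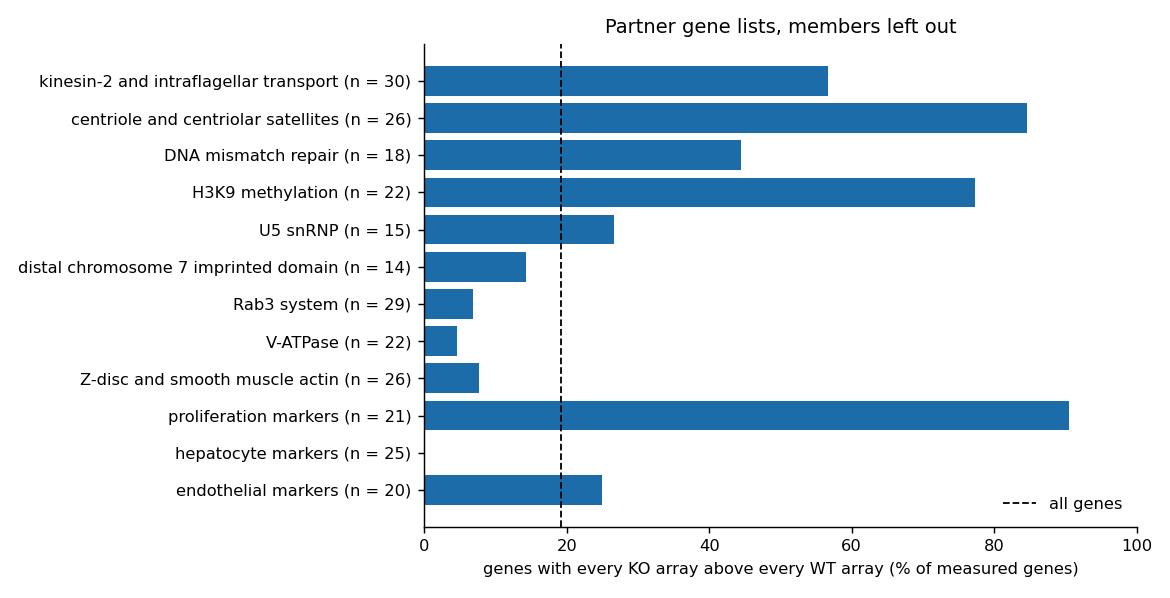
Share of each gene list with every KO liver array above every WT liver array, the 10 genes left out and the number of measured genes in brackets. The dashed line is the share over all genes, 19.2%. Centriole, H3K9 methylation and proliferation lists lie far to its right, and the Rab3 and proton pump lists to its left.

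In the AS lines ciliary transport genes rose against both livers. Of the 30 genes, 17 rose and 0 fell against KO livers (11.4% and 10.1% of the whole table), median 0.77, and 20 rose and 0 fell against WT livers (17.6% and 11.1%), median 1.10. Without KO liver 1 or KO liver 3 the first count was 9 each. Without single WT livers or lines the second was 16 to 23. Wdr35, a subunit of the retrograde complex, stood at 7.56, 9.06 and 8.49 in AS lines 1, 2 and 3, against 5.01, 5.38 and 5.01 in KO livers 1, 2 and 3 (log2 difference 3.24, limma adjusted p = 0.00475). Of 26 centriole genes, 7 rose and 1 fell against KO livers and 11 rose and 1 fell against WT livers. Against KO livers, 1 rose without KO liver 1 and 2 without KO liver 3, and against WT livers 7 rose without WT liver 2 and 7 without WT liver 3. Of 22 H3K9 methylation genes, 1 rose and 3 fell against KO livers (11.4% and 10.1% of the whole table). Against WT livers 7 rose and 3 fell (17.6% and 11.1%), and 4, 3 and 4 rose without WT livers 1, 2 and 3. Setdb2 fell to 6.60, 5.97 and 6.34 in AS lines 1, 2 and 3, against 8.72, 8.66 and 9.37 in KO livers 1, 2 and 3 (-2.61, limma adjusted p = 0.00250), unlike Setdb1, which did not pass there.

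The genes whose mean-centred profile over the 9 arrays was nearest to each of the 10 were found by the root-mean-square difference. Nearest to Rab3b was Gnb4, a subunit of G proteins, at 0.45 log2 units, followed by Ints6l at 0.59 and Adgra2, an adhesion receptor of brain vessel growth, at 0.63. Gnb4 stood at 9.01, 6.44 and 6.34 in AS lines 1, 2 and 3, at 10.15, 9.32 and 10.21 in KO livers 1, 2 and 3 and at 8.91 to 9.01 in the WT livers. As for Rab3b, AS line 1 is far above the other two lines. The distance grows with how much a gene itself varies, from a root-mean-square of 0.29 about its own mean for Ccdc97 to 1.56 for Rab3b, so distances are not compared between the 10. The nearest genes were Sik2 for Ccdc97 (0.07), Slc35c1 for Mlh3 (0.08), Nr2c1 for Kif3a (0.09) and Men1, a tumour suppressor of histone H3K4 methylation complexes, for Setdb1 (0.11). Ecd was nearest to Cfap97 (0.13), Spindoc to Tssc4 (0.13), Ufsp1 to Odf2l (0.14), Mtss1 to Nexn (0.17) and Tbkbp1 to Dmxl2 (0.24). Such nearness rests on 9 arrays in 3 groups.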

How the data were processed

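RNA was measured on 9 whole-transcript mouse arrays. The authors deposited 1 log2 value for each probe set and array, made with RMA in the oligo package per the submitters' processing notes, which name no version. RMA forces arrays towards a common distribution, which can hide a shift shared by most genes, and the table has no detection calls. Of 35556 probe sets, 21789 had 1 gene in the platform's annotation, 1621 several and 12146 were not in it. The probe set of highest mean over 9 arrays was used per gene, and apart from profile nearness no gene's level was set against another's.

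Pairs of groups were fitted on their 6 arrays with limma 3.58.1 (lmFit, eBayes, 2-sided, no covariates) in R 4.3.3, p-values adjusted by Benjamini-Hochberg across the 19938 genes, and calls made at 0.05. The procedure was tested on simulated data. Alternatives were a replicate block, one fit of 9 arrays, a robust fit with an intensity trend, leaving out genes under the median level, 75th percentile scaling, the mean of probe sets, array weights and leaving out each replicate. Promoters are RefSeq windows of GRCm38.p6. The 10 genes, the lists and the tests were chosen with earlier results of these data known. Named are the 10 genes, up to 3 genes of a list by size of KO over WT difference, the nearest profiles and Notch1; the Rab3 paralogues, Wdr35 and the AS values of Setdb2 were chosen after their values were seen. The labels name separate animals and separately derived lines as replicates. Same-numbered samples did not deviate together in all pairs, so the numbers were not used as pairs in the fits reported. Their correlations of deviations from group means were -0.393 to 0.43 for KO with WT livers. For lines with KO livers they were all positive, 0.074 to 0.339, and for lines with WT livers -0.157 to 0.17.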

Additional observations from a re-analysis of the deposited data

How the results depend on the processing

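The differences of the 10 genes between KO and WT livers kept their sign under all alternatives run. The lowest was 0.39, for Ccdc97 with 75th percentile scaling. With arrays left out, blocked or weighted the sign could not turn, since the genes were selected on these arrays and their groups do not overlap. The kept sign is therefore no test of the rise. Over all genes, the count past the threshold in this comparison was 0 in the fit reported, 2 with all 9 arrays in one fit and 5744 with array weights, and 0 to 1949 when single replicates were left out (1949 without KO liver 2, 60 without WT liver 1). For AS lines against KO livers the count over all genes was 4275, and 2281 to 4048 without single replicates, lowest without KO liver 1 (2281) and KO liver 3 (2310). For AS lines against WT livers it was 5715, and 3397 to 5435, lowest without WT liver 2 (3397) and WT liver 3 (3556). Of the 10 genes, 0 to 4 passed against KO livers and 4 to 8 against WT livers when single replicates were left out. With the replicate block, 2 passed against KO livers (Rab3b and Nexn, from 5) and 5 against WT livers (from 6). The labels share replicate numbers only, and not every sample correlated best with its own number. Ccdc97 reversed to -0.10 against KO livers without AS line 3, within a range of -0.10 to 0.13 without single replicates. The causes were not tested. Of the 128 differences recomputed in each comparison, 24 lost and 6 gained a call against KO livers, and 8 lost and 7 gained one against WT livers. With genes under the median level left out, Odf2l and Nexn were not tested. Signal over background could not be assessed without detection calls.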
